A study of Homo sapiens with 6 samples.

Results

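HOX genes encode homeodomain transcription factors that give cells their position along the body axis. They lie in 4 clusters, HOXA, HOXB, HOXC and HOXD, and genes at the same place in different clusters form a paralog group, numbered from 1 (most anterior) to 13 (most posterior). In the embryo, low-numbered groups pattern the hindbrain and pharynx, middle groups the trunk, and high-numbered groups the limbs, kidney, gut end and genital tract. Adult cells commonly keep a HOX pattern that reflects where they came from, with Polycomb complexes holding unused genes silent and MLL complexes keeping used genes active. All 39 protein-coding genes named HOXA, HOXB, HOXC or HOXD with a number were taken, out of 28395 genes in the count table: 11 HOXA, 10 HOXB, 9 HOXC and 9 HOXD genes.

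The study asked what depletion of KIFC1, a kinesin that gathers surplus centrosomes into a bipolar spindle, does to small-cell lung cancer cells. RNA was sequenced from NCI-H146 (H146), an established small-cell lung cancer line labelled as wild type. Cells received either a scrambled negative control siRNA (3 libraries) or KIFC1 siRNA (3 libraries), both by lipid transfection, and were taken on day 2. The libraries are labelled biological replicates, but only 1 line and 1 KIFC1 siRNA were sequenced, so an effect of KIFC1 loss and an off-target effect of that siRNA cannot be told apart here. The 6 libraries held 15392374 to 17754458 counts each. A gene with 3 counts, taken here as the floor, corresponds to 0.163 to 0.197 CPM (counts scaled to library size), depending on the library. CPM is the count divided by the TMM-scaled library total; RPKM is CPM per kilobase of exon and is used wherever 2 genes are compared in level.

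KIFC1 itself (chromosome 6, 33391461 to 33409896) had 14, 4 and 14 counts in control cells and 1, 1 and 0 after KIFC1 siRNA. The groups did not overlap. The mean control level was 3.24 times the mean level of the KIFC1 siRNA libraries when these were set at the floor of 3 counts each. Control replicate 2, at 4 counts (0.250 CPM), lay close to that floor. The fitted log2 fold change was -3.66 (SE 0.82), with an adjusted p of 0.0739 in edgeR and of 0.00459 with replicate as a block in the fit. Counts were low in both groups, and 88.7% of the 32-base words of KIFC1 transcripts also occur on alternate sequences of the genome build. For the HOX genes this share was 4.0% for HOXB7 and at most 0.8% for the others.

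The line carried the markers of its labelled type. INSM1, a neuroendocrine transcription factor, stood at 679 ± 56.0 CPM (SD, n = 3) in control cells and UCHL1 at 1231 ± 148 CPM. NEUROD1, POU2F3 and YAP1, which mark other subtypes, had at most 7 counts in any library. Markers of other cells were mixed. DCN had 0 to 1 count, LUM 0 to 9, HBB 0 and SFTPC 0 to 1. In control cells COL1A2 had 118 to 197 counts, TWIST1 204 to 213, PTPRC 21 to 57 and CDH1 1391 to 1970. At least 10 counts in each control library were found for 5 of 7 fibroblast, 2 of 7 blood and 4 of 8 non-neuroendocrine epithelial markers. Summed over the 7 blood cell markers, control libraries held 4.13 to 5.94 CPM and KIFC1 siRNA libraries 5.61 to 7.50 CPM. The 7 fibroblast markers summed to 106 to 150 CPM in control cells and 94.7 to 142 CPM after KIFC1 siRNA, most of it PDGFRA at 101 ± 23.7 CPM in control cells. The 8 non-neuroendocrine epithelial markers summed to 587 to 609 CPM and 637 to 680 CPM, most of it EPCAM, which this line also expresses. The epithelial sums did not overlap between groups. With replicate as a block in the fit, the adhesion molecule NCAM1, another neuroendocrine marker, was lower after KIFC1 siRNA (log2 fold change -0.42, adjusted p 0.000646), and it was not called without the block. The part of these markers in the HOX values was not tested. In bulk RNA, fewer cells that express a gene and less of its RNA per cell cannot be told apart.

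In control cells, the HOXA, HOXB and HOXD clusters were active and the HOXC cluster was not. A gene was called expressed with at least 10 counts in each control library, silent with 3 or fewer in each, and low otherwise. By this rule 21 HOX genes were expressed, 7 low and 11 silent. HOXA had 7 expressed, 3 low and 1 silent gene. HOXB had 7 expressed, 1 low and 2 silent, HOXD had 7 expressed, 2 low and 0 silent, and HOXC had 0 expressed, 1 low and 8 silent. All HOX genes together took 0.0227% to 0.0241% of the counts of a control library and 0.0250% to 0.0282% of those of a KIFC1 siRNA library. HOXB supplied 43.9% of the HOX counts in control cells, HOXD 37.5%, HOXA 18.5% and HOXC 0.0841%.

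**Figure D1:**
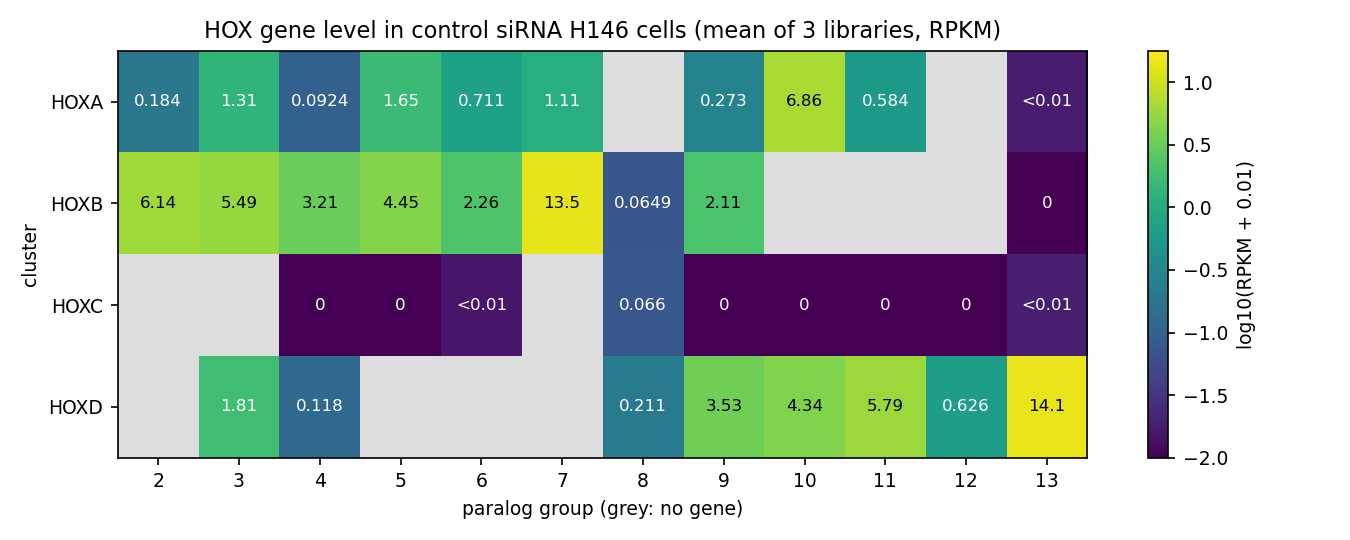
Mean level of HOX genes in the 3 control siRNA libraries, by cluster (rows) and paralog group from 2 to 13 (columns), printed in RPKM and coloured by log10(RPKM + 0.01); grey squares have no gene. The HOXC row lies at or near 0, while HOXD13 at 14.1 RPKM and HOXB7 at 13.5 RPKM have the highest levels with all exons as gene length.

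With all exons of a gene as its length, HOXD13 had the highest RPKM of the HOX genes at 14.1 ± 0.470 RPKM (SD, n = 3), above 83.2% of protein-coding genes. HOXB7 followed at 13.5 ± 1.58 RPKM, and its libraries (11.7 to 14.8 RPKM) spanned those of HOXD13 (13.7 to 14.6 RPKM). After a gap came HOXD1 (7.79 ± 1.09 RPKM), HOXA10 (6.86 ± 0.639), HOXB2 (6.14 ± 1.08), HOXD11 (5.79 ± 0.348) and HOXB3 (5.49 ± 0.256), and each of these lay within the spread of its neighbour in that order. HOXB5, HOXD10, HOXD9, HOXB4, HOXB6 and HOXB9 ran from 4.45 down to 2.11 RPKM, and the other 8 expressed genes from 1.81 (HOXD3) to 0.584 RPKM (HOXA11). Summed over a cluster, HOXD (38.3 ± 1.94 RPKM) and HOXB (37.2 ± 2.83 RPKM) did not differ beyond their spread, and HOXA held 13.8 ± 0.577 RPKM. With the longest transcript of each gene as its length instead of all its exons, HOXB (46.5 RPKM) came out above HOXD (42.4 RPKM) and the HOXA sum was higher too, so the order of HOXB and HOXD depends on the gene model. The order of genes does too: by longest transcript HOXB7 (15.02 RPKM) came out above HOXD13 (14.1 RPKM), and HOXA10 (10.01 RPKM), HOXB3 (9.69 RPKM) and HOXB2 (8.96 RPKM) above HOXD1 (7.79 RPKM).

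The posterior ends of the clusters differed, as paralog group 13 shows. HOXD13, which patterns the digits and genital tract, had 550, 545 and 648 counts in control cells. Its paralogs HOXA13 (0, 2 and 0), HOXB13 (0, 0 and 0) and HOXC13 (1, 0 and 0), which act in the distal limb and genital tract, in the prostate and in hair, were silent. A count of 0 in all 3 libraries, as for HOXB13, allows a level of up to the floor given above; this covers counting error only. HOXD13 and HOXA13 are shown by the 250 bases before 1 RefSeq start of each (GRCh38), written 5′ to 3′ on the gene's strand. They were chosen because one was among the most abundant HOX transcripts and the other was at the floor. The HOXD13 gene record begins further upstream, at 176087487, so its stretch lies inside that record. Which start these cells use was not tested. Capitals mark CG dinucleotides, which is where vertebrate DNA is methylated.
HOXD13, chr2:176092471-176092720, plus strand: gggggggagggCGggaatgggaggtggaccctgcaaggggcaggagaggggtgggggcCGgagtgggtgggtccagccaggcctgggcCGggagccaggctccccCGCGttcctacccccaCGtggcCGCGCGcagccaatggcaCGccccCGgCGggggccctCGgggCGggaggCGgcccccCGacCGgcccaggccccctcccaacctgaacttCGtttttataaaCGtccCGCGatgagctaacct
HOXA13, chr7:27200092-27200341, minus strand: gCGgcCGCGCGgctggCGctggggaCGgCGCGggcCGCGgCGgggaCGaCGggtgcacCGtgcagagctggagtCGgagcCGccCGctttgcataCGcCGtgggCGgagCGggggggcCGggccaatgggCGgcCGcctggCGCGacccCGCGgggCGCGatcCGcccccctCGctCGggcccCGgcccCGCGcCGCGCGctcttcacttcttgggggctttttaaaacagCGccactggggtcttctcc
The stretch of HOXA13, which was silent, held 40 CG dinucleotides with a GC content of 78.0%. The stretch of HOXD13, which was active, held 21 with 74.0%.

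Promoter letters were read for the 20 HOX genes that matched the RefSeq promoter table. The median was 20.5 CG dinucleotides in 250 bases (range 4 to 40), against a median of 11 over 27305 promoters (quartiles 3 and 23). Expressed HOX genes had a median of 21 (n = 11, range 11 to 31), low ones 20 (n = 5, range 4 to 28) and silent ones 14 (n = 4, range 7 to 40), so the ranges overlap throughout. HOXC4 and HOXC5 share 1 start and so 1 promoter in this count, and the stretches of HOXD3 and HOXD13 lie inside their gene records. The letters TATAAA, searched on both strands, occurred in the promoters of HOXA3, HOXA9, HOXA10 and HOXD13 and in 11.1% of all promoters. In HOXD13 they begin 27 bases before the start used here, between the CG pairs near the end of its sequence. This is a match of letters and not a measured site.

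The HOXC cluster (chromosome 12, 53938831 to 54056030) was silent over its whole length. HOXC4, HOXC5, HOXC10, HOXC11 and HOXC12 had 0 counts in all 6 libraries. HOXC6 and HOXC13 had 1, 0 and 0 counts in control cells and 0 after KIFC1 siRNA, and HOXC9 had 0 in control cells and 0, 1 and 0 after KIFC1 siRNA. HOXC8, a thoracic segment gene, was the only member above the silent limit, with 2, 4 and 2 counts in control cells and 2, 2 and 2 after KIFC1 siRNA. The cluster as a whole held 2 to 4 counts per library. Its noncoding RNAs in the table were near 0 too, with HOTAIR at 0, 0 and 1 in control cells and 0 after KIFC1 siRNA. The genes on both sides were active: CALCOCO1 had 764, 747 and 869 counts and SMUG1, a DNA repair glycosylase, had 611, 617 and 619 in control cells.

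HOXA (chromosome 7) was active in patches. HOXA10, which acts in the uterus and kidney, had 466, 402 and 427 counts in control cells. HOXA3, needed for the thymus and parathyroid, had 93, 99 and 96, HOXA5, which shapes the trachea and lung, had 43, 49 and 53, and HOXA7 had 44, 37 and 57. HOXA11 and HOXA6 ran from 11 to 30 counts. Between these lay weak genes: HOXA2 had 7, 6 and 9 counts, HOXA4 had 2, 4 and 2, and HOXA9, known from leukaemia, had 6, 20 and 16. HOXA9 thus sat at 0.273 ± 0.147 RPKM directly beside HOXA10 at 6.86 ± 0.639 RPKM. EVX1, the next homeobox gene beyond HOXA13, had 0 counts in all 6 libraries, and HOTTIP, transcribed from the same end, had 0 to 1.

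HOXB (chromosome 17, 48528526 to 48728750) was active from HOXB2 to HOXB7 and at HOXB9, with both ends silent. HOXB3 had 710, 620 and 753 counts in control cells, HOXB7 had 376, 336 and 328 and HOXB2, a hindbrain gene, had 261, 278 and 224. HOXB4, which expands blood stem cells, had 108, 100 and 120, HOXB5, which acts in the enteric nervous system, had 110, 175 and 134, and HOXB6 and HOXB9 ran from 80 to 111. HOXB1, which specifies the facial nerve segment of the hindbrain, had 0, 0 and 1, and HOXB8 had 0, 4 and 4 counts although it lies between HOXB7 and HOXB9. On the RPKM scale HOXB8 was at 0.0649, against 13.5 for HOXB7 and 2.11 for HOXB9.

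HOXD (chromosome 2, 176087487 to 176190907) had its weak genes in the middle. The posterior genes HOXD9 (91, 123 and 122 counts in control cells), HOXD10 (157, 162 and 236), HOXD11 (194, 209 and 222) and HOXD13 were active, and HOXD12 had 22, 25 and 36. At the other end, HOXD1 had 234, 272 and 240 and HOXD3 had 122, 99 and 120. In between, HOXD8 had 17, 6 and 5 counts and HOXD4 had 1, 2 and 4. EVX2, the homeobox gene beyond HOXD13, had 3, 7 and 11 counts, while LNPK on that side and MTX2 on the other had 890 to 1294.

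By paralog group, group 3 (HOXA3, HOXB3, HOXD3) and group 7 (HOXA7, HOXB7) had all members expressed. Group 8 (HOXB8, HOXC8, HOXD8) had 0 expressed and 3 low members, and its summed level was 0.342 ± 0.0994 RPKM in control cells. Group 4 rested on HOXB4 alone and group 13 on HOXD13 alone. Summed per length in control cells, group 7 (14.6 ± 1.46 RPKM) and group 13 (14.1 ± 0.457 RPKM) did not differ beyond their spread, and group 10 (11.2 ± 0.304 RPKM) and group 3 (8.61 ± 0.351 RPKM) were lower. None of the 130 paralog group values computed under other scalings or with a library left out moved beyond 1 SD.

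Some HOX exons lie over other genes, and the strand setting of the counting is not given in the sources used here, so a HOX gene and its antisense partner cannot be told apart where they overlap. In GENCODE 44, 37.5% of HOXA7 exon bases lie outside any other gene, 39.9% of HOXD1, 59.9% of HOXA6 and 67.1% of HOXB6. HOXD1 overlaps HAGLR, an antisense RNA with 788, 783 and 921 counts in control cells, whereas HOXA-AS3, which overlaps HOXA7 and HOXA6, had 2 to 8 counts. HOXB6 overlaps HOXB-AS3, which had 0 counts in every library, and also HOXB3 on its own strand, which had 620 to 753 counts in control cells. Of the 32-base words of HOXB6, 16.1% occur in another HOX gene. HOXD10 and HOXD11 overlap each other on 1 strand, which leaves 81.8% and 78.6% of their bases outside other genes. HOXD13, HOXB7, HOXB9 and HOXD9 overlap no gene.

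The second question was what KIFC1 siRNA did to these genes. A total of 22 HOX genes passed the filter on low counts, namely the 21 expressed genes and HOXA9, and 17 did not. Of the 22, 0 were called higher and 0 lower at an adjusted p of 0.05 in edgeR, where 0.325% of the 14777 genes tested were called higher and 0.372% lower. The smallest adjusted p was 0.164, for HOXB6. At an unadjusted p of 0.05, 3 HOX genes were higher (HOXB6, HOXB9, HOXD10) and 1 lower (HOXA3), where 4.72% and 4.55% of all genes tested were. DESeq2 and limma-voom also called 0 HOX genes at an adjusted p of 0.05. The paper, using cutoffs of p under 0.05 and on fold change, lists HOXB6 and HOXB9 as upregulated after KIFC1 knockdown. No adjustment of p is mentioned for that list. In the DESeq2 Wald test run here, HOXB6 had an unadjusted p of 0.00279 and an adjusted p of 0.0968. HOXB9 had 0.00453 and 0.137, so both genes passed 0.05 only without adjustment.

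With replicate as a block in the fit, HOXB6, HOXB9 and HOXD10 were higher. These 3 of 22 genes were called higher and 0 lower, where 2.75% and 3.07% of all genes tested were called. The call depended on which libraries were used. With replicate 1 or replicate 2 of both groups left out of the blocked fit it fell to 0 HOX genes. Without replicate 3 it was 5. Calls over all genes moved too. Without replicate 1, 142 of 14878 genes tested were higher and 145 lower, and without replicate 2, 212 and 267 of 14827. Without replicate 3 these were 944 and 1179 of 14789, so the HOX counts changed along with those of all genes. Without a block, CPM did not overlap between groups for 4 of the 22 genes that were higher (HOXB6, HOXB9, HOXD10, HOXD11) and 1 that was lower (HOXA3), where 7.97% and 7.51% of all genes tested did not.

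HOXB6, a trunk-level gene, had 92, 98 and 111 counts in control cells and 124, 155 and 153 after KIFC1 siRNA. All KIFC1 siRNA libraries were above all control libraries. Its level was 5.89 ± 0.331 CPM (SD, n = 3) in control cells and 9.16 ± 1.16 CPM after KIFC1 siRNA, a log2 fold change of 0.63 (SE 0.17), with an edgeR adjusted p of 0.164 and of 0.0147 with the block. Left out in turn from the blocked fit, replicates 1, 2 and 3 gave adjusted p of 0.1301, 0.115 and 0.00720.

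HOXB9, another trunk gene of the cluster, is separated from HOXB6 by HOXB7 and HOXB8. HOXB9 had 94, 80 and 106 counts in control cells and 119, 160 and 124 after KIFC1 siRNA. The groups again did not overlap, with KIFC1 siRNA replicate 2 above the other two. Its level was 5.47 ± 0.408 CPM and 8.57 ± 1.69 CPM, a log2 fold change of 0.64 (SE 0.19), with an edgeR adjusted p of 0.223 and of 0.0255 with the block. Without replicate 1, 2 or 3 the blocked adjusted p was 0.106, 0.385 and 0.00106.

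HOXD10, which specifies lumbar motor neurons and acts in the limb, had 157, 162 and 236 counts in control cells and 220, 291 and 247 after KIFC1 siRNA. In counts the groups overlapped at 236 and 220, but in CPM they did not (9.41 to 12.8 against 14.04 to 19.1). Its level was 10.8 ± 1.81 CPM and 16.1 ± 2.69 CPM, a log2 fold change of 0.57 (SE 0.17), with an edgeR adjusted p of 0.226 and of 0.0102 with the block. Without replicate 1, 2 or 3 the blocked adjusted p was 0.123, 0.277 and 4.3e-06. Its overlapping neighbour HOXD11 had 194, 209 and 222 counts and then 218, 238 and 256, with a log2 fold change of 0.30 (SE 0.14) and an edgeR adjusted p of 0.542, or 0.200 with the block.

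HOXA3 went the other way, with 93, 99 and 96 counts in control cells and 65, 64 and 65 after KIFC1 siRNA. All 3 KIFC1 siRNA libraries were below all controls. Its level was 5.66 ± 0.491 CPM and 4.11 ± 0.121 CPM, a log2 fold change of -0.46 (SE 0.19), with an edgeR adjusted p of 0.450, or 0.163 with the block, so it passed neither fit. Its paralogs HOXB3 (log2 fold change 0.10, SE 0.11) and HOXD3 (-0.11, SE 0.18) lay within 1 SE of 0.

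**Figure D2:**
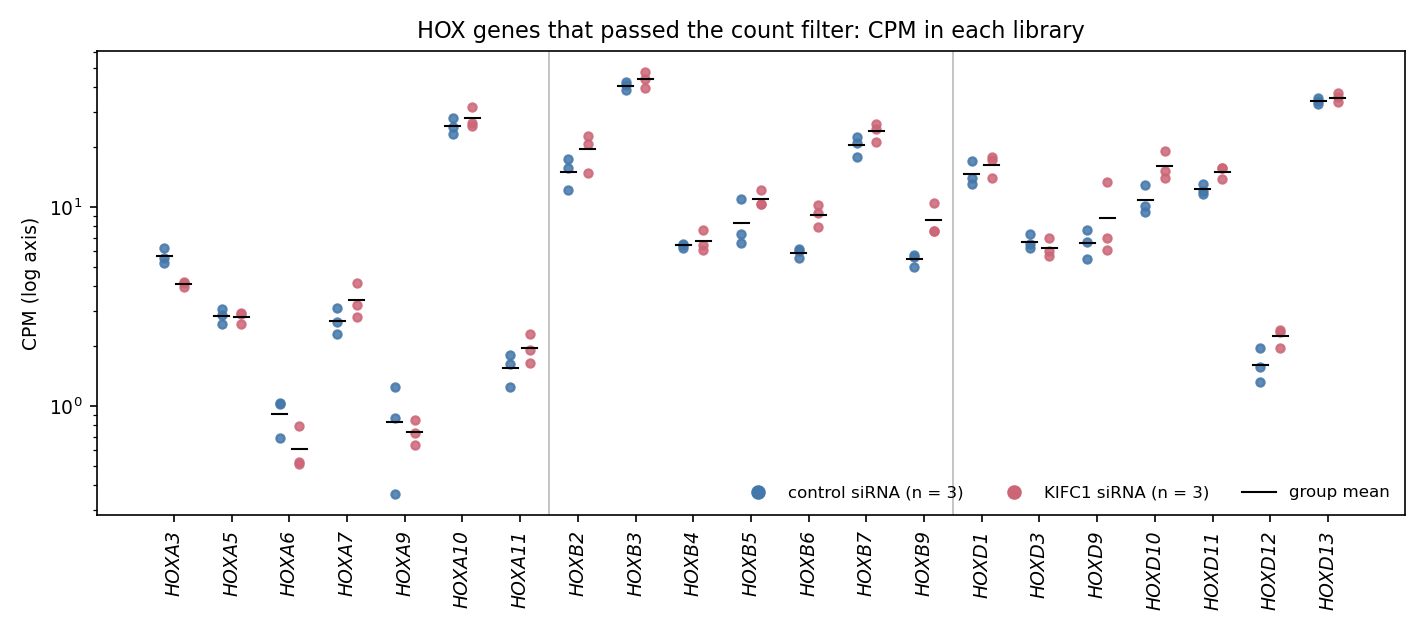
CPM of 21 of the 22 HOX genes that passed the count filter, on a log axis, 1 point per library, with control siRNA and KIFC1 siRNA side by side and a line at each group mean. The groups separate for HOXB6, HOXB9, HOXD10 and HOXD11, where KIFC1 siRNA is higher, and for HOXA3, where it is lower.

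Across the 22 genes, the log2 fold changes ran from -0.58 (HOXA6) to 0.64 (HOXB9), with a median of 0.19 against 0.01 over all genes tested. A positive value was found for 16 and a negative for 6, or 72.7% positive against 52.1% of all genes tested. In HOXB all 7 tested genes had a positive value, with a median of 0.37; in HOXD 6 were positive and 1 negative, with a median of 0.30; in HOXA 3 were positive and 5 negative, with a median of -0.09. Genes of 1 cluster share their chromosome region and some share exons, so they are not independent. These counts carry no test, and single-gene values other than the 3 blocked calls did not pass the threshold.

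**Figure D3:**
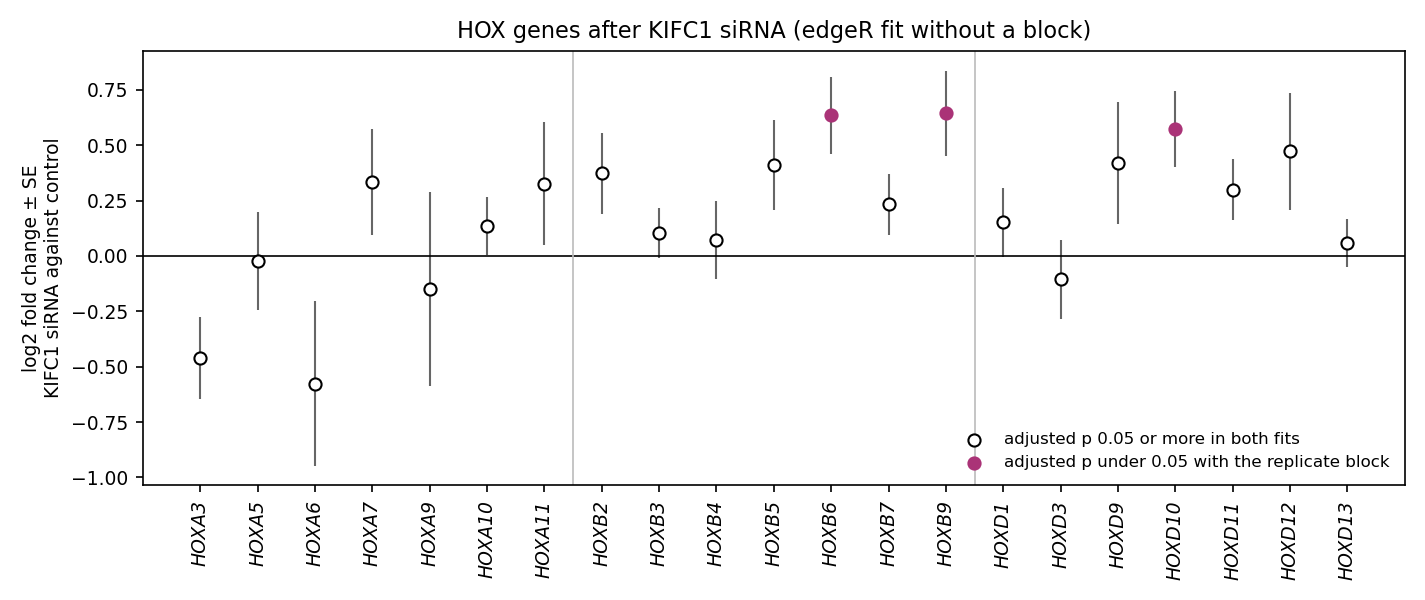
Log2 fold change of KIFC1 siRNA against control siRNA for 21 of the 22 tested HOX genes in edgeR without a block; bars are 1 SE, vertical lines separate clusters, and filled points passed an adjusted p of 0.05 with the replicate block. All 7 HOXB genes lie above 0, with HOXB6 at 0.63 and HOXB9 at 0.64, and HOXA genes lie on both sides.

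Among the other HOXB genes, HOXB5 went from 110, 175 and 134 counts to 162, 186 and 170, with a log2 fold change of 0.41 (SE 0.20). HOXB2 went from 261, 278 and 224 to 327, 347 and 242 (0.37, SE 0.18), and HOXB7 from 376, 336 and 328 to 409, 323 and 405 (0.23, SE 0.14). In all 3 the groups overlapped. HOXB3 (688, 727 and 648 after KIFC1 siRNA) and HOXB4 (101, 117 and 100) had log2 fold changes of 0.10 and 0.07, and the value of HOXB4 turned to -0.04 without KIFC1 siRNA replicate 2.

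Among the other HOXD genes, HOXD9 had 110, 204 and 99 counts after KIFC1 siRNA. Replicate 2 alone stood high, and without it the log2 fold change went from 0.42 (SE 0.28) to -0.02. HOXD12 had 38, 36 and 32 counts (0.47, SE 0.27), HOXD1 had 269, 271 and 228 (0.15, SE 0.15) and HOXD13 had 558, 511 and 610 (0.06, SE 0.11). HOXD13 was at 34.1 ± 1.14 CPM in control cells and 35.5 ± 1.85 CPM after KIFC1 siRNA.

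Among the other HOXA genes, HOXA10 had 500, 400 and 419 counts after KIFC1 siRNA (log2 fold change 0.14, SE 0.13) and HOXA5 had 46, 44 and 42 (-0.02, SE 0.22). HOXA7 had 65, 49 and 46 (0.33, SE 0.24), HOXA11 had 36, 29 and 27 (0.33, SE 0.28) and HOXA6 had 8, 8 and 13 (-0.58, SE 0.37). HOXA9 had 10, 13 and 12 (-0.15, SE 0.44). None of these passed in either fit, and the sign of HOXA5 and HOXA9 changed when single libraries were left out.

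The 17 genes that did not pass the filter had few counts in both groups. HOXA13 went from 0, 2 and 0 counts to 3, 6 and 3, HOXB1 from 0, 0 and 1 to 1, 2 and 3, and HOXA2 from 7, 6 and 9 to 8, 16 and 12. At these counts a fold would rest on a few reads, and tested with no filter their edgeR adjusted p were 0.529, 0.826 and 0.826. HOXD4 went to 4, 3 and 5 counts, HOXD8 to 9, 10 and 7, HOXB8 to 2, 3 and 4, HOXA4 to 4, 2 and 1, and HOXB13 to 1, 0 and 0. In CPM the groups did not overlap for HOXA13, HOXB1 and HOXA2, which were higher after KIFC1 siRNA. The share of all genes failing the filter that did not overlap was not computed, so no change is read from this. No gene that failed the filter was called when tested without it, and their few counts limit what could be seen.

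Summed over a cluster, HOXB went from 105, 106 and 96.9 CPM in the 3 control libraries to 123, 133 and 113 CPM. HOXD went from 83.2, 90.3 and 88.8 CPM to 97.9, 109 and 96.8 CPM. In both clusters all KIFC1 siRNA libraries lay above all controls, a ratio of 1.20 for HOXB (102.5 ± 4.92 to 123.1 ± 9.88 CPM) and 1.16 for HOXD (87.4 ± 3.72 to 101.1 ± 6.48 CPM). HOXA overlapped (43.1 ± 2.39 to 44.9 ± 4.06 CPM). HOXC was at 0.200 ± 0.0788 and 0.149 ± 0.0419 CPM, which is 2 to 4 counts per library. Sums over chosen genes were not tested.

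The noncoding RNAs of the clusters did not pass the test. Of 24 listed, 18 were in the table and 5 passed the filter, with 0 called in either fit. HAGLR, within HOXD, had 777, 693 and 906 counts after KIFC1 siRNA (log2 fold change 0.04, SE 0.11). HOTAIRM1, within HOXA, went from 67, 69 and 68 to 81, 83 and 58 (0.24, SE 0.22), and HAGLROS from 107, 100 and 99 to 94, 97 and 79 (-0.07, SE 0.19). HOXA10-AS and HOXB-AS1 were at 7 to 21 counts. Of the 25 genes flanking the clusters, 19 passed the filter and 0 were called. With the block SKAP2, beside HOXA, was called higher (log2 fold change 0.41, adjusted p 0.0130). This was 1 of 19 higher and 0 lower, where 2.75% and 3.07% of all genes tested were called with the block.

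The clusters also hold miRNA genes that act on HOX transcripts, and the counts of their precursors were 0 in all 6 libraries apart from 1 count of MIR196A1 in KIFC1 siRNA replicate 3. Mature miRNAs were not measured separately. The sequences of the best known ones are shown from RefSeq because their seeds match HOX genes of both active and silent clusters. Capitals mark bases 2 to 8, the seed.
hsa-miR-196a-5p: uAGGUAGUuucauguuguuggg
hsa-miR-196b-5p: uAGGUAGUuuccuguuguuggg
hsa-miR-10a-5p: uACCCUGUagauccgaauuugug
miR-196a (from HOXB and HOXC) and miR-196b (from HOXA) have the same seed. The complementary site, ACTACCT in the transcript, occurred in the canonical 3' UTR of 8 of 39 HOX genes (HOXA5, HOXA7, HOXA9, HOXB1, HOXB6, HOXB7, HOXB13 and HOXC8) and in 7.13% of 19193 3' UTRs, with 4 matches in HOXA7 and 3 in HOXC8. The miR-10a site ACAGGGT occurred in HOX genes that include HOXA3 and HOXB3, and in 12.7% of all. These are matches of letters; of the genes with the site ACTACCT, HOXB6 alone was called with the block, and the letters ACTACCT do not occur in the canonical 3' UTR of HOXB9 or HOXD10.

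HOX proteins bind DNA with TALE cofactors of the PBX and MEIS families. Of 11 such genes, 9 passed the filter and 0 were called in either fit, with 2 positive and 7 negative values and a median log2 fold change of -0.12. PBX3 was at 65.9 ± 5.74 CPM in control cells and MEIS2 at 36.5 ± 3.802 CPM. They had log2 fold changes of -0.12 and -0.19, and neither passed the test.

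Of 31 Polycomb genes, which keep unused HOX genes silent, 29 passed the filter and 0 were called in edgeR, with a median log2 fold change of -0.05. RBBP7, RBBP4 and SUZ12, the 3 with most counts in this list, were at 294 ± 10.6, 150 ± 1.82 and 127 ± 6.56 CPM in control cells. With the block 3 of 29 were lower and 0 higher, where 3.07% and 2.75% of all genes tested were called. Among the 3 were CBX2 and PHC3, a reader and a scaffold subunit of the PRC1 complex. CBX2 had 1795, 1777 and 2056 counts in control cells and 1436, 1417 and 1266 after KIFC1 siRNA, and PHC3 had 1236, 1317 and 1850 and then 888, 911 and 1409. CBX2 did not overlap between groups and PHC3 did. Their log2 fold changes were -0.33 (SE 0.11) and -0.34 (SE 0.17), with edgeR adjusted p of 0.277 and 0.577 without the block. These genes were named after their values were seen.

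Of 19 MLL complex and H3K27 demethylase genes, which keep HOX genes active, all 19 passed the filter, 0 were called in edgeR, and the median log2 fold change was -0.11. PSIP1 (312 ± 27.8 CPM), KMT2D (170 ± 54.6 CPM) and KMT2A (129 ± 28.4 CPM) had the most counts of the list in control cells. With the block MLLT3, which reads acetylated histones in elongation complexes, was higher (830, 780 and 902 counts to 912, 936 and 1201). KMT2D was lower (2214, 2297 and 4270 to 1621, 1631 and 3124), and the blocked adjusted p were 0.0148 and 0.00697. Without the block their edgeR adjusted p were 0.224 and 0.814. The block thus called 1 of 19 higher and 1 of 19 lower, where 2.75% and 3.07% of all genes tested were called.

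Retinoic acid and the caudal (CDX) genes set HOX expression in the embryo. Of 23 such genes, 10 passed the filter and 0 were called in either fit, with a median log2 fold change of 0.11. ALDH1A1, a retinoic acid synthesizing enzyme, was at 313 ± 6.87 CPM in control cells, GDF11 at 33.9 ± 2.14 and CYP26B1, which degrades retinoic acid, at 23.6 ± 2.93 CPM, and their log2 fold changes were 0.14, -0.04 and 0.01. CDX1 and CDX4 had 0 counts in every library and CDX2 had 0 in control cells and 1, 3 and 0 after KIFC1 siRNA.

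Other genes of regional identity mixed foregut and other territories. Of 29 ParaHox and positional homeobox genes, 12 passed the filter and 13 were silent in control cells, and 0 were called in edgeR (median log2 fold change 0.02). DLX5 was at 308 ± 20.03 CPM in control cells, PAX6 at 25.9 ± 1.81 and NKX2-5 at 24.97 ± 1.70 CPM. NKX2-2, a neural and endocrine regulator, had 452, 364 and 436 counts in control cells and 593, 637 and 546 after KIFC1 siRNA, with no overlap, a log2 fold change of 0.62 (SE 0.13) and an edgeR adjusted p of 0.0513, which just missed the threshold and passed with the block. Of 14 lung and airway factors, 8 passed and 0 were called in either fit. SOX2 (310 ± 17.8 CPM), FOXA2 (189 ± 10.4 CPM) and FOXA1 (76.0 ± 6.08 CPM) were abundant in control cells, whereas NKX2-1, the lung and thyroid regulator, had 3, 1 and 5 counts in control cells and 11, 10 and 2 after KIFC1 siRNA, and FOXF1 had 0.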

How the data were processed

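H146 cells were sequenced as total RNA on day 2, with 3 libraries per siRNA. The authors aligned reads to GRCh38 with HISAT2 2.2.1, counted them per gene with featureCounts 2.0.8 and deposited whole counts for 28395 NCBI gene IDs. The gene annotation and the strand setting are not given in the sources used here. The submitters' processing notes also name DESeq2 1.46.0 and R 4.4.2.

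Gene IDs were matched to symbols (27745 matched; the 650 others held 0.062% of counts). The test was edgeR 4.0.16 under R 4.3.3 (TMM, filterByExpr with KIFC1 kept, robust quasi-likelihood, Benjamini-Hochberg over 14777 genes, threshold 0.05). The biological coefficient of variation was 13.1%. RPKM used merged GENCODE 44 exons. On simulated data with 14777 genes, 193 of 200 genes given a log2 change of 1 were recovered and 4 unchanged genes called. No 2 libraries agreed within sampling noise (chi-square per degree of freedom 5.96 to 36.5).

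The replicate numbers are shared by the groups. After removal of group means, same-number libraries correlated at 0.507, 0.464 and 0.534 over 10496 genes and different-number libraries at -0.520 to 0.103, so the numbers were taken as pairs; neither the labels nor the methods say that they are, and the fit with the number as a block was an alternative.

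Alternatives were DESeq2 1.42.0 size factors, library size only, no filter, a stricter filter, DESeq2's Wald test, limma-voom (limma 3.58.1), the block, each library left out, other limits for expressed and silent, and the longest transcript as length. Leaving pairs out of the blocked fit was chosen after seeing the data. The rule names the HOX genes and, from each related list, the 3 with the highest mean CPM in control cells and any called; some of these are not reported here. Others named were chosen after their values were seen. The members and lists were chosen with earlier results of these data known. Intervals and floors cover counting error only. Protein sequences were not used here. Figures used matplotlib 3.10.9, and tables pandas 2.3.3 and numpy 2.4.6, under Python 3.11.15.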

Additional observations from a re-analysis of the deposited data

How the results depend on the processing

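Of 284 fits of single HOX genes under alternatives, 275 kept their direction and side of the threshold. The replicate block called 3 HOX genes higher instead of 0, with 407 genes higher and 454 lower over all genes instead of 48 and 55. In the blocked fit with 1 replicate number left out, 0 to 5 HOX genes were called. Over all genes these fits called 142 to 944 higher and 145 to 1179 lower, with the most calls without replicate 3. The HOX genes called without replicate 3 were the 3 genes with HOXB2 and HOXD9. With all libraries the block changed no other HOX call. Over all genes, no filter on low counts gave 121 higher and 144 lower and DESeq2's Wald test 126 and 148; leaving out 1 library gave 9 to 194 higher and 15 to 274 lower. In the HOX related lists (0 called higher and 0 lower), no filter gave 1 and 1, DESeq2's Wald test 1 and 2, the block 4 and 5, and leaving out 1 library 0 to 2 and 0 to 4. The log2 fold change of KIFC1 passed the threshold with no filter (-3.66, adjusted p 0.00412), limma-voom (-3.14, 0.0445) and the replicate block (-3.65, 0.00459). The sign reversed for HOXA5 without control replicate 2 or KIFC1 siRNA replicate 3, HOXA9 with limma-voom (0.0070) and without control replicate 2, and HOXB4 and HOXD9 without KIFC1 siRNA replicate 2. With 1 library left out, the log2 fold change ran from -0.086 to 0.036 for HOXA5, -0.502 to 0.249 for HOXA9, -0.037 to 0.138 for HOXB4 and -0.018 to 0.630 for HOXD9. The cause was not tested. With silent set at 0 counts, 11 HOX genes were low and 7 silent. With the longest transcript as length, summed control RPKM was 17.998 for HOXA, 46.5 for HOXB and 42.4 for HOXD. Depth limits the 17 HOX genes that did not pass the filter, and none of them was called with no filter.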
